A study of Mus musculus and Acomys cahirinus with 25 samples.

Results

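The dermis of healing skin wounds was followed in the African spiny mouse, and 3 libraries of the active wound were set against 3 libraries of unwounded or late dermis, 6 of the 25 libraries of the series. The active wound side held 1 library at post-wound day (PWD) 14 and 2 at PWD21, and the rest side held 2 libraries at PWD0, which is unwounded skin, and 1 at PWD28. Libraries were placed by the tissue and day in their labels. The other 19 libraries were 6 of spiny mouse epidermis, used below for comparison, and 13 of laboratory mouse skin, not used here. All 6 dermis libraries came from wild-type (WT) Acomys cahirinus dorsal skin, and the study's methods give captive-bred animals of both sexes, 2 months old. The whole wound was taken, so that center and margin were not separated, and the dermis was peeled from the epidermis by hand after trypsin. Nothing in the labels ties a library to a named animal, so that p-values measure the spread between these libraries, and PWD14 and PWD28 had 1 library each.

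A skin wound is first filled by a provisional matrix and by fibroblasts that enter from its edges, and proteases remodel this matrix as it matures. Spiny mice are known for closing large wounds with skin that bears new hair follicles instead of a scar. Unwounded dermis also holds the appendages that dip into it, the hair follicles and sebaceous glands, together with nerves, fat, vessels and mast cells. In bulk tissue, fewer cells of a type and less RNA per cell cannot be told apart.

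The active wound libraries held 16985720 to 34751956 reads on genes and the rest libraries 5669760 to 10252684, so that each active library was deeper than each rest library, and depth and side cannot be told apart by the design alone. Levels are given as CPM, the counts scaled to library size after TMM normalization, and 3 counts corresponded to 0.0842 to 0.595 CPM. Floors of this kind cover counting error only. The first principal component, with 49.3% of the variance, put both PWD0 libraries at one end and the PWD14 library at the other, with the PWD28 library in between. Across genes, the PWD28 library correlated with the PWD21 libraries at 0.896 and 0.925 and with the PWD0 libraries at 0.805 and 0.869. The PWD28 library also differed in sex-linked transcripts, chosen after their values were seen. It held 84.6 CPM of Xist and 0.167 CPM of the Y-linked gene Uty, where the other 5 libraries held 0.421 to 5.55 CPM of Xist and 32.6 to 83.8 CPM of Uty.

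Which genes were switched on or off in the wound and then came back was asked by testing the active wound against rest in 14096 genes by the quasi-likelihood test of edgeR, with p-values adjusted across all 14096 by Benjamini and Hochberg's method (FDR). Genes that rose included the matrix protein tenascin C, the opioid precursor Penk, the secreted protein C1qtnf3, the gelatinase Mmp9 and the imprinted RNA H19, and genes that fell included Serpinb5, Prlr, Arg1 and a long series of epithelial junction and barrier genes. In all, 141 genes passed an FDR of 0.05, which is 1.0% of the tested genes. Of these, 22 were higher in the active wound (0.156%) and 119 lower (0.844%). In each of the 141 the 3 active libraries lay wholly above or wholly below the 3 rest libraries, so that the 22 are called transient and the 119 lost and regained. Such separation alone was common, with 12.1% of all tested genes wholly higher and 10.7% wholly lower in the active wound. The FDR of the called genes lay between 0.0314 and 0.0498.

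These calls sat close to the threshold and depended on every library but one. No gene passed the quasi-likelihood test when any 1 of the 2 PWD0, the PWD14 or the 2 PWD21 libraries was left out, although 1559 to 2590 genes then had an unadjusted p under 0.05, against 2607 with all 6 libraries. Without the PWD28 library 1510 genes passed. Pooling days within a side puts the change over time into the error. Fitting each day apart weighs the days equally, so that the lone PWD28 library counts as much as both PWD0 libraries together. Fitted so, Uty was higher in the active wound by 4.16 on the log2 scale. It stood at 36.1 and 43.1 CPM at PWD0, 32.6 at PWD14 and 0.167 at PWD28. A fit with 1 coefficient per time point called 2405 genes (17.1%), 912 higher (6.47%) and 1493 lower (10.6%) in the active wound, and these included all 22 transient and all 119 lost and regained genes. With that fit, 1211 to 4072 genes passed when each library was left out in turn.

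Among the transient genes, 6 encode matrix proteins, proteases or protease inhibitors, with a median log2 fold change of 3.31. The role groups used here were made after the values were seen and describe the genes only. Tenascin C, a large glycoprotein of provisional matrix, stood at 44.4 and 20.9 CPM at PWD0, 5912 at PWD14, 1965 and 1499.6 at PWD21, then 108 at PWD28. The active wound was higher by 5.76 ± 0.90 on the log2 scale (standard error, FDR 0.0415), and every active library lay far above every rest library. Mmp9, which degrades basement membrane collagen, had 2.78 and 3.37 CPM at PWD0, 181 at PWD14, 37.8 and 20.4 at PWD21, then 2.83 at PWD28, a log2 fold change of 4.73 ± 0.85 (FDR 0.0498). It was highest at PWD14 and lay within the unwounded range at PWD28. A2m, a broad protease inhibitor, had its high libraries at PWD21 instead, with 56.6 and 33.2 CPM against 21.9 at PWD14, while all 3 rest libraries held 2.67 to 3.25 CPM. Mamdc2 and Chsy3, a proteoglycan and a chondroitin synthase, were also in the group.

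Secreted signals made up 5 of the transient genes, with a median log2 fold change of 4.47. Penk, the precursor of the enkephalin peptides, had 0.595 and 1.41 CPM at PWD0, 68.3 at PWD14, 26.6 and 30.4 at PWD21, then 1.17 at PWD28, a log2 fold change of 5.26 ± 0.58 (FDR 0.0314). Ptn, the heparin-binding growth factor pleiotrophin, was more abundant in both states, at 105 and 42.6 CPM at PWD0, 2289 at PWD14, 917 and 411 at PWD21, then 51.7 at PWD28 (log2 fold change 4.19 ± 0.75, FDR 0.0483). Wisp1, a matricellular target of Wnt signaling, differed little among its 3 active libraries, at 30.5 CPM at PWD14 and 39.2 and 32.1 at PWD21, against 6.55 and 5.48 at PWD0 and 8.004 at PWD28 (log2 fold change 2.34 ± 0.34, FDR 0.0352). Wnt2b and C1qtnf3 were near the detection limit before wounding, with 2 and 3 counts of C1qtnf3 in the PWD0 libraries against 681 to 1195 in the active ones. Their folds therefore rest on few counts on the low side.

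The remaining transient genes were 5 membrane proteins and 6 genes of other kinds. H19, an imprinted noncoding RNA of fetal tissues, was at 22.8 and 41.0 CPM at PWD0, 1381 at PWD14, 1705 and 1201 at PWD21, then 98.1 at PWD28 (log2 fold change 4.72 ± 0.64, FDR 0.0352). Its 3 active libraries were close together, and its PWD28 level was still above both PWD0 libraries. Uchl1, a ubiquitin hydrolase abundant in neurons, was at 1.59 and 1.27 CPM at PWD0, 44.5 at PWD14, 21.9 and 12.8 at PWD21, then 2.08 at PWD28 (log2 fold change 3.98 ± 0.58, FDR 0.0352). Flrt2, an adhesion receptor ligand, and Afap1, an actin filament-binding protein, rose by less, with log2 fold changes of 2.05 ± 0.35 (FDR 0.0466) and 1.83 ± 0.31 (FDR 0.0453). Rprm, Plekhg4, Zfhx4, Steap1, Tro, Sorcs2 and Adam23 were also in the set, with log2 fold changes from 1.98 to 4.29. In 14 of the 22 transient genes the PWD14 library was above both PWD21 libraries, and in 5 it was below both, where over all 14096 tested genes it was above both in 5581 and below both in 6538.

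**Figure D1:**
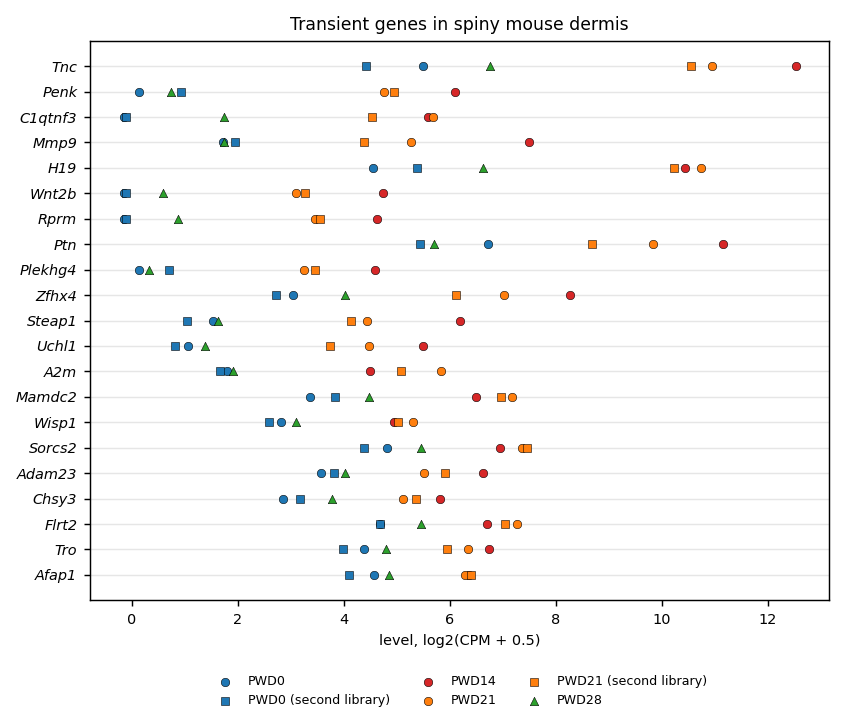
Level of 21 of the 22 transient genes in each spiny mouse dermis library, on the log2(CPM + 0.5) scale, ordered by fold change (Tnc 5.76 to Afap1 1.83 on the log2 scale). Each point is 1 library; in every row the PWD14 and PWD21 points lie to the right of the PWD0 and PWD28 points, by the choice of the genes.

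Across the 119 lost and regained genes the log2 fold change was -3.30 at the median. Junctions and adhesion formed the largest of the role groups, with 15 genes and a median of -3.30. Dsp, which ties desmosomes to keratin filaments, was at 1152 and 971 CPM at PWD0, 46.3 at PWD14, 87.8 and 187 at PWD21, then 1250.0 at PWD28, a log2 fold change of -3.39 ± 0.58 (FDR 0.0453). Perp, another desmosome component, was at 1454 and 1033 CPM at PWD0, 27.3 at PWD14, 64.9 and 80.8 at PWD21, then 573 at PWD28 (log2 fold change -4.14 ± 0.60, FDR 0.0352). The PWD14 library was the lowest of the 6 for both genes, and PWD28 was back within or above the unwounded range for Dsp and below it for Perp. The desmosomal plakophilins Pkp1 and Pkp3, the gap junction connexin Gjb5, and the tight junction genes Ocln, Cldn3 and F11r fell by 2.85 (F11r) to 4.0 (Gjb5) on the log2 scale.

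Cornified envelope and barrier genes made up 12 of the lost genes, with a median of -2.70. Tgm5, a transglutaminase that cross-links the envelope, was at 51.0 and 56.4 CPM at PWD0, 3.79 at PWD14, 4.09 and 4.94 at PWD21, then 36.1 at PWD28 (log2 fold change -3.48 ± 0.35, FDR 0.0314), with little spread within either side. Sfn and Sbsn, both of keratinocytes, fell by 2.74 ± 0.49 (FDR 0.0476) and 2.81 ± 0.50 (FDR 0.0496). Abca12, the lipid transporter of the skin barrier, was at 34.3 and 45.4 CPM at PWD0, 5.69 at PWD14, 9.46 and 9.88 at PWD21, then 39.5 at PWD28. Channels and transporters numbered 8, with a median of -3.75, and included Aqp3, the glycerol and water channel, at 175 and 156 CPM at PWD0, 4.35 at PWD14, 9.76 and 12.9 at PWD21, then 109 at PWD28. The epithelial sodium channel subunits Scnn1a and Scnn1b fell with it. Of the 6 regulators of transcription or splicing, Gata3, Barx2 and Sox9 are transcription factors of epithelia and appendages, Esrp1 directs epithelial splicing, and Thrb is a thyroid hormone receptor. Sox9 was at 287 and 225 CPM at PWD0, 8.35 at PWD14, 10.2 and 23.0 at PWD21, then 65.7 at PWD28 (log2 fold change -3.79 ± 0.66, FDR 0.0466).

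Apart from Perp, the largest falls, counting genes that averaged 10 CPM or more on the higher side, were outside the junction and barrier groups. Since 65 of the lost genes were in no role group, this does not mark these genes as non-epithelial. Prlr, the prolactin receptor, was at 28.2 and 18.4 CPM at PWD0, 0.0702 at PWD14, 0.128 and 0.112 at PWD21, then 1.33 at PWD28, which is 1 to 4 counts in each active library against 16 to 142 in the rest libraries. Arg1, the arginase of the urea cycle and of some macrophages, was at 69.8 and 34.7 CPM at PWD0, 0.140 at PWD14, 0.512 and 0.983 at PWD21, then 5.50 at PWD28 (log2 fold change -5.96 ± 1.05, FDR 0.0467). Gsta4, a glutathione transferase, fell by 5.62 ± 0.99 (FDR 0.0467). Serpinb5, the serpin of epithelial cells known as maspin, combined a large fall with high counts, at 1717 and 896 CPM at PWD0, 24.4 at PWD14, 36.1 and 45.2 at PWD21, then 327 at PWD28 (log2 fold change -4.80 ± 0.69, FDR 0.0352). The other genes with the largest falls were Chmp4c, Efna3, Fam25c, Dapl1, Rab15, Pof1b and Cyp21a1, at log2 fold changes of -4.15 to -5.45. At PWD0, the log2 level in epidermis minus dermis was 2.91 for Fam25c, 2.36 for Pof1b, 2.05 for Dapl1 and 1.98 for Arg1. It was 0.04 to 1.21 for Efna3, Perp, Chmp4c and Serpinb5. For Prlr, Gsta4, Rab15 and Cyp21a1 it was -1.97 to -3.22. Ccdc68 had 0, 0 and 1 counts in the active libraries against 5, 9 and 12 in the rest libraries, so that the size of its fall is not given.

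The role group of matrix genes held 2 of the 119, and Lamb3, a laminin chain of the basement membrane counted here with adhesion, fell by 3.30 on the log2 scale. Tnxb, the tenascin of resting dermis that organizes collagen fibrils, moved opposite to Tnc, at 154 and 156 CPM at PWD0, 4.42 at PWD14, 6.95 and 15.5 at PWD21, then 79.9 at PWD28 (log2 fold change -3.85 ± 0.56, FDR 0.0352). The other was Col11a2, a chain of a minor fibrillar collagen, with a log2 fold change of -3.63 ± 0.49 (FDR 0.0352). Selenbp1 and Selenbp2 both fell, but they are close paralogs and reads of one may have been counted on the other. Gm5424 and 4833423E24Rik, among the 119, are predicted or uncharacterized symbols and are named only. In 84 of the 119 genes the PWD14 library was below both PWD21 libraries, and in 15 it was above both, against the same counts over all tested genes, 6538 and 5581 of 14096.

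**Figure D2:**
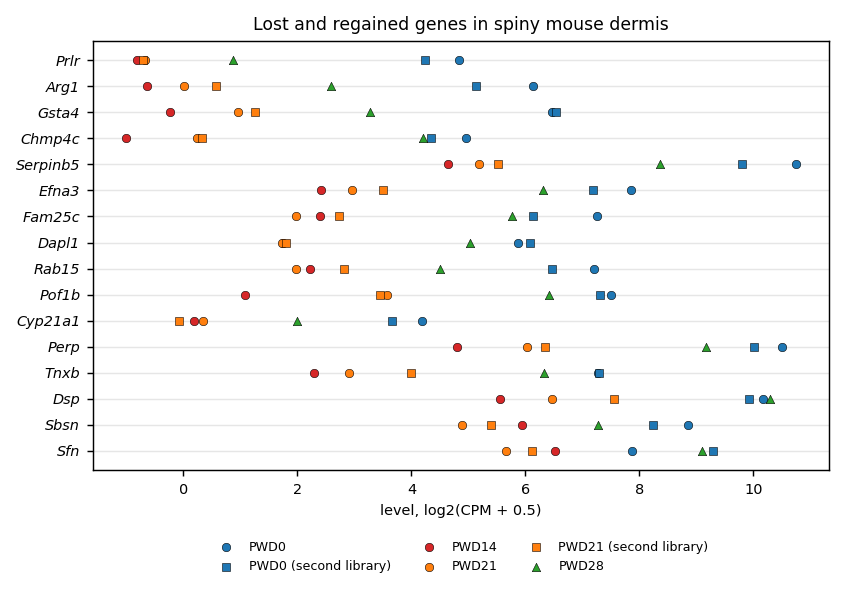
Level of 16 lost and regained genes in each spiny mouse dermis library, on the log2(CPM + 0.5) scale: the 12 named genes with the largest falls, and Tnxb, Dsp, Sbsn and Sfn. Each point is 1 library; the PWD14 and PWD21 points lie to the left by the choice of the genes, and the PWD28 point falls short of both PWD0 points for Prlr and Arg1 but not for Dsp.

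To show what stands before these genes, the 250 bases upstream of each start were searched in the RefSeq promoter table of the laboratory mouse (GRCm38.p6), since no spiny mouse sequence was used here. The motifs were TGANTCA (AP-1), AACCNGTT (the grainyhead family, GRHL) and CATTCC (TEAD), on both strands. They were chosen with the gene lists known, and a match is neither a bound site nor a cause. Windows were found for 85 of the 119 lost and 11 of the 22 transient genes. AP-1 matches were held by 14 of the 85 lost genes (16.5%) and by 5.96% of the tested genes with a window, GRHL matches by 4 (4.71%) and 1.88%, and TEAD matches by 14 (16.5%) and 12.9%. None of the 11 transient genes held an AP-1 or GRHL match and 1 held a TEAD match. Of all 32851 windows of this length, 6.75% held the AP-1, 1.79% the GRHL and 12.6% the TEAD motif. Printed are Tnc, the transient gene with the largest rise, which holds no match, and 5 lost genes with an AP-1 match (Prlr, Serpinb5 and Sbsn) or a GRHL match (Rab25 and Sfn), with the matches in capitals, 5′ to 3′ on the gene's strand.
Tnc (chr4:64046937-64047186, - strand): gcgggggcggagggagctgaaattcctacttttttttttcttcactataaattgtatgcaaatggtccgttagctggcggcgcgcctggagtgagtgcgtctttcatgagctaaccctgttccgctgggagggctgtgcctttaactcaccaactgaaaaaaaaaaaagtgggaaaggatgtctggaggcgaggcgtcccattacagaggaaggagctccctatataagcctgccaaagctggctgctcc
Prlr (chr15:10293401-10293650, + strand): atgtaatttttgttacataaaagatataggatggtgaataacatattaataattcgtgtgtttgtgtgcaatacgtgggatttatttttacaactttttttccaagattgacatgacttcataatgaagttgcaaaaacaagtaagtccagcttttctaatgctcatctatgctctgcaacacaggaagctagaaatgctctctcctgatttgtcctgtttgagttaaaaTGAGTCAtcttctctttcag
Serpinb5 (chr1:106860925-106861174, + strand): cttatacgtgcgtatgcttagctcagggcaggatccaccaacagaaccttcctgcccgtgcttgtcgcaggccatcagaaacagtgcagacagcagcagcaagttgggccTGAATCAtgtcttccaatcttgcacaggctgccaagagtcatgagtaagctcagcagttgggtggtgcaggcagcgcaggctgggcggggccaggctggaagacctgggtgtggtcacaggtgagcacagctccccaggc
Sbsn (chr7:30751221-30751470, + strand): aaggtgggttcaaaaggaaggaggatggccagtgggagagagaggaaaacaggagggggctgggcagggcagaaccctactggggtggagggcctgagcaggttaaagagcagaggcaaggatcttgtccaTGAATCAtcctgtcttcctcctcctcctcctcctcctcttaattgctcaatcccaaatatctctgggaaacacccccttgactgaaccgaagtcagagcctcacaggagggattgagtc
Rab25 (chr3:88548280-88548529, - strand): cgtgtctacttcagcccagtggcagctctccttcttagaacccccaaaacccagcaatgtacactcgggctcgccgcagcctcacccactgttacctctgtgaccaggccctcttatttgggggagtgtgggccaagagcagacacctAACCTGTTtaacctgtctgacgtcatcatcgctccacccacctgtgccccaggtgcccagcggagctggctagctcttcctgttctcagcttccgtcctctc
Sfn (chr4:133602169-133602418, - strand): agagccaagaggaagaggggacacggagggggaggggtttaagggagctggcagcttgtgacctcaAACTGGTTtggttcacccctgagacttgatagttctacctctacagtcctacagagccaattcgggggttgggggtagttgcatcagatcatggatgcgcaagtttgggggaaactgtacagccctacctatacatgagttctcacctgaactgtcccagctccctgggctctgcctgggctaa
The AP-1 match began 20 bases before 1 of the 3 starts of Prlr, 140 before that of Serpinb5 and 119 before that of Sbsn. The search left the middle base of this motif free. The match read TGAGTCA in Prlr and TGAATCA in Serpinb5 and Sbsn, and the shares above count every such form. The GRHL match began 102 bases before the start of Rab25 and 184 before that of Sfn. Prlr has 3 windows in the table and Tnc 2, of which 1 is printed for each. Of the Prlr windows only the printed one, the farthest downstream, holds a match, and no window of Tnc does. A gene was counted where any of its windows held the motif.

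The lost genes were read beside the tissue. At PWD0, 42 of the 119 (35.3%) were at least 4-fold higher in the epidermis library than in the mean of the dermis libraries, where 5.73% of all tested genes were, and 45 were under 2-fold higher. The list of keratinocyte markers was lower in the active wound too. Their summed level was 30955 and 16734 CPM at PWD0, 2835 at PWD14, 1176 and 1801 at PWD21, then 5261 at PWD28, and 3 of its 18 tested members (Dsp, Sfn and Sbsn) were among the lost genes, with a list median of -2.64 against 0.07 over all genes. Whether epidermal or follicular cells in the dermis fraction had a part in the lost genes was not tested. When only genes under 2-fold higher in the epidermis were tested, an alternative added after the data were seen, 4 genes passed, 1 higher and 3 lower. In that test 1892 genes had an unadjusted p under 0.05. The FDR depends on which genes are tested together, so that this count does not show whether the called genes are epidermal. None of the 22 transient genes was 4-fold higher in the epidermis library, and 8 (36.4%) were 4-fold lower, against 12.3% of all tested genes.

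Among markers of other residents of unwounded dermis, the mast cell, adipocyte, sebaceous gland and Schwann cell lists had negative medians. No member of these lists passed the pooled test. Medians above 0 were those of fibroblast (1.12), macrophage (0.69), endothelium (0.47), and dermal papilla and condensate markers (0.19), among other lists. All 10 mast cell markers were wholly lower in the active wound, with a list median of -3.11, and all 10 were called lower by the fit per time point. Their summed level went from 6905 and 5455 CPM at PWD0 to 125 at PWD14, 643 and 522 at PWD21, then 1289 at PWD28. The mast cell proteases Mcpt4 and Cpa3 were at 4150 and 1309 CPM in one PWD0 library and at 61.7 and 9.13 CPM at PWD14. Adipocyte markers (2898 and 3162 CPM at PWD0, 413 to 699 in the active wound, 750.3 at PWD28), sebaceous gland markers (2904 and 3315, 222 to 578, and 318) and Schwann cell markers (1302 and 1021, 166 to 580.3, and 480) had list medians of -2.09, -2.16 and -1.12. Wholly lower in the active wound were 10 of 17 adipocyte, 1 of 14 sebaceous and 1 of 15 Schwann cell markers, and 1 Schwann cell marker was wholly higher. Over all tested genes 10.7% were wholly lower and 12.1% wholly higher, so that the sebaceous and Schwann cell counts were no more than these shares. The summed sebaceous and Schwann cell levels at PWD28 lay within the range of the active libraries. By the fit per time point 13 of 17 adipocyte, 10 of 14 sebaceous and 7 of 15 Schwann cell markers were called lower and none higher. Over all tested genes that fit called 10.6% lower and 6.47% higher. Hair shaft and inner root sheath markers differed widely within PWD0, with 135 and 14963 CPM in the 2 PWD0 libraries, 150 at PWD14, 2214 and 2703 at PWD21, then 36969 at PWD28.

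**Figure D3:**
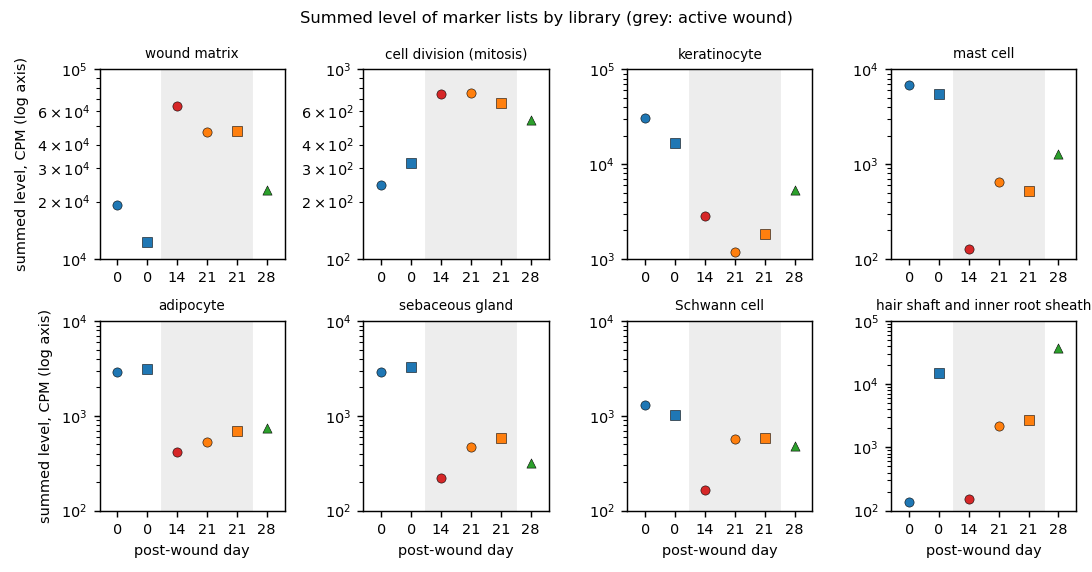
Summed level in CPM (log axis) of 8 marker lists in each spiny mouse dermis library by post-wound day, with the active wound shaded; each point is 1 library. Wound matrix is higher in the active wound (46861 to 64178 CPM) than in rest (12318 to 23054 CPM), while mast cell markers are lowest at PWD14 (125 CPM) and hair shaft markers differ between the PWD0 libraries (135 and 14963 CPM).

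Of 25 wound matrix genes Tnc alone passed the pooled test, and 15 were wholly higher in the active wound, with a list median of 2.07. Over all tested genes 12.1% were wholly higher. The fit per time point called 17 higher and none lower, where over all tested genes it called 6.47% higher and 10.6% lower. The summed level was 19305 and 12318 CPM at PWD0, 64178 at PWD14, 46861 and 47415 at PWD21, then 23054 at PWD28. Fibronectin (Fn1) was at 199 and 225 CPM at PWD0, 7462 at PWD14, 3951 and 6325 at PWD21, then 1789 at PWD28, and periostin (Postn), which binds tenascin and collagen, at 2622 and 1535, 14346.5, 11782 and 8209, and 2287. At PWD28, 11 of the 25 were still called above PWD0 and none below, with a list median log2 difference of 1.72. Over all tested genes 2.70% were called above PWD0 and 2.89% below. The 11 at PWD28 included fibronectin, Col12a1 and Cthrc1. Periostin lay between the PWD0 libraries there. Among 22 matrix metalloproteinases and inhibitors Mmp9 was the called member of the pooled test, and the fit per time point called 8 higher and 1 lower. Mmp11 and Mmp13 had log2 fold changes of 5.41 and 6.40 that missed the pooled threshold, with FDR 0.064 and 0.054. Timp3, an inhibitor held in the matrix, was lower only in the fit per time point.

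In the resting dermal matrix list Tnxb was the called member of 25, and the median was -0.35. The fit per time point split it, with 6 higher and 8 lower. Elastin (Eln) was at 537 and 527 CPM at PWD0, 29.2 at PWD14, 248 and 453 at PWD21, then 2662 at PWD28, and Pi16, a marker of adventitial fibroblasts, at 2129 and 1704 CPM at PWD0 and 8.70 to 36.5 CPM in the other 4 libraries. Elastin therefore passed its unwounded level by PWD28, and Pi16 stayed low. None of 28 mitosis genes passed the pooled test, with a list median of 1.12. In the active wound 16 of the 28 were wholly higher, where 12.1% of all tested genes were. The summed level of the list was 244 and 321 CPM at PWD0, 739 at PWD14, 749 and 662 at PWD21, then 542 at PWD28. Of the 28, 12 were called higher by the fit per time point. In the pooled test Wisp1 was the called gene of 30 tested Wnt pathway genes. The fit per time point called 6 of them higher, among them the secreted Wnt modulators Sfrp2 (log2 fold change 4.09, FDR 0.000542) and Sfrp4 (5.53, FDR 0.00246), and 2 lower, Dkk2 and Wnt10a. Arg1 was the called gene of 19 macrophage markers in the pooled test, and the list median was 0.69. At PWD0 Arg1 was higher in the epidermis library than in dermis, by 1.98 on the log2 scale, and which cells held it was not tested. The fit per time point called 6 macrophage markers higher (C1qa, C1qb, C1qc, Cd68, Ms4a7 and Trem2) and Arg1 lower. No lymphocyte marker was called by either fit, and of 18 endothelial markers the fit per time point called 2 higher (Apln and Tek) and 2 lower (Lyve1 and Prox1), and the pooled test none. Over all tested genes the fit per time point called 6.47% higher and 10.6% lower, and the endothelial counts lay near these shares. Immediate early and heat shock genes respond to tissue handling. They summed to 8274 and 17455 CPM at PWD0, 2428 to 5743 in the active wound and 3859 at PWD28. The part of handling in the results was not tested. The genes that the study follows, Twist1, Zeb1, Zeb2, Tgfb1 and Stat3, missed the pooled threshold, with log2 fold changes of 1.12, 0.61, 0.79, 0.33 and 0.11, and Mmp9 passed it. The fit per time point called Twist1 higher (log2 fold change 1.10, FDR 0.0468). Twist1 was at 169 and 115 CPM at PWD0, 528 at PWD14, 324 and 464 at PWD21, then 319 at PWD28. Zeb2, which the paper describes as peaking at PWD14 in dermis, was lowest there. It was at 202 and 216 CPM at PWD0, 189 at PWD14, 544 and 521 at PWD21, then 307 at PWD28. Stat3 was also lowest at PWD14, at 41.9 CPM against 48.2 and 93.6 at PWD0, 107 and 133 at PWD21, and 119 at PWD28.

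How far each gene had come back at PWD28 was expressed as the share of the log2 distance from the active wound mean to the PWD0 mean. The rule counts PWD28 as rest, so that a high share was partly fixed by the choice. The transient genes had covered a median of 78.0% (65.3% to 125%) and the lost genes 86.2% (30.4% to 155%). At PWD28, 17 of the 22 transient genes were above both PWD0 libraries, 4 between them and 1 below both, where over all 14096 tested genes the PWD28 library was above both in 5864, between in 2864 and below both in 5368. Of the 119 lost genes 69 were below both PWD0 libraries, 20 between and 30 above. Barrier genes had a median share of 102%, junction genes 87.4%, and the enzymes 49.1%.

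A test of PWD28 against PWD0, in the fit with 1 coefficient per time point and with the lone PWD28 library assumed to vary like the others, called 788 of the 14096 genes (5.59%), 380 higher (2.70%) and 408 lower (2.89%). None of the 22 transient genes was among them. Of the lost genes 6 were, all lower at PWD28, namely Prlr, Gsta4, Arg1, Hist3h2ba, Rab15 and Blnk, so that these had been regained only in part. Prlr was the lowest of them, at -4.11 ± 0.65 on the log2 scale (FDR 0.0129). The transient and lost genes were chosen with PWD28 counted as rest, so that few calls among them were partly fixed by the choice. Their low number in this test is therefore not separate evidence that they came back. Genes of the resting skin that had not come back at all gave the contrast. Pcolce2, an enhancer of procollagen processing, was at 282 and 273 CPM at PWD0 and 1.58 at PWD28, with 2.09 to 8.49 CPM in the active wound (log2 fold change at PWD28 -7.45 ± 0.49, FDR 0.00108). Comp, a matrix protein of tendon and cartilage, Serpina12, and the adipocyte genes Cidec and Adig were lower at PWD28 as well. The log2 fold changes were -7.20 for Comp, -7.17 for Serpina12, -7.09 for Cidec and -6.60 for Adig. In the other direction Egfl6, a follicle matrix protein, had at most 0.422 CPM at PWD0, 39.8 to 437 CPM in the active wound and 145 CPM at PWD28, and Acan (aggrecan) was at 0.595 and 0.422 CPM at PWD0 and 35.7 at PWD28. Uty had the largest fall of the named genes at PWD28 (-7.83 ± 0.71), as given above for the sex-linked transcripts. Xist and Uty set the PWD28 library apart from both PWD0 libraries, and the labels give no sex. A difference of day and one of sex therefore cannot be told apart in this comparison.

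**Figure D4:**
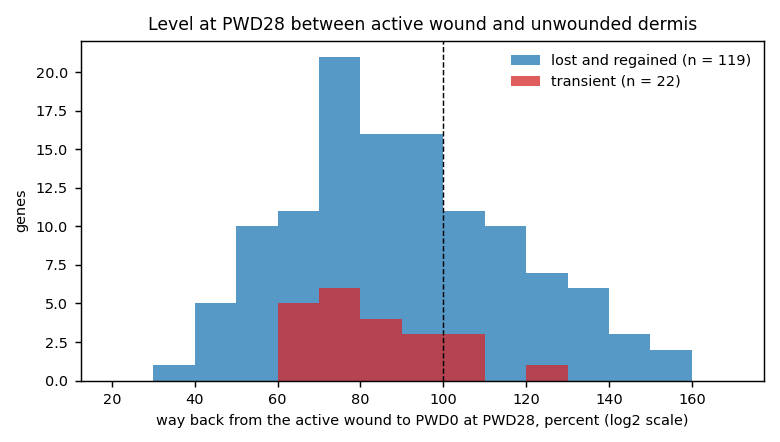
Number of genes by the share of the log2 distance from the active wound mean to the PWD0 mean that the PWD28 library had covered, in bins of 10%, for 119 lost and regained (median 86.2%) and 22 transient genes (median 78.0%). The dashed line at 100% marks the PWD0 mean, which 39 lost and 4 transient genes reached or passed.

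Whether the wound difference was shared by the epidermis was tested as an interaction over all 12 spiny mouse libraries. In epidermis the active wound side held 2 libraries at PWD14 and 2 at PWD21. Its rest side held 1 at PWD0 and 1 at PWD28, so that no day at rest was replicated there. Of 15288 genes 514 (3.36%) differed between the tissues, 208 with a more positive difference in dermis (1.36%) and 306 with a more negative one (2.0%). Since the transient and lost genes were chosen by the dermis values that enter this test, their counts are a description. Of the transient genes 9 were called, all more positive in dermis, among them Tnc (5.96 ± 0.97, FDR 0.0098), Ptn, H19, A2m, Flrt2 and Wisp1. In the epidermis Tnc was at 107 CPM at PWD0, 40.6 to 102 CPM at PWD14 and PWD21 and 61.2 CPM at PWD28, a log2 fold change of -0.23 (FDR 0.76). Mmp9 rose in both tissues, going in the epidermis from 5.16 CPM at PWD0 to 24.1 to 113 CPM in the active wound and 6.52 at PWD28 (log2 fold change 3.60, FDR 0.04), and its difference between tissues was 1.12 ± 1.02 (FDR 0.528).

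Of the lost genes 84 were called, all more negative in dermis. Tgm5 (-5.21 ± 0.40, FDR 0.000218) went from 51.3 CPM at PWD0 to between 152 and 201 CPM in the active epidermis and 49.8 CPM at PWD28, while it fell in dermis. Rab25, Clic3, Ckmt1, S100a14 and Lypd3, the other genes with the lowest p on that side among those that averaged 10 CPM or more in dermis, likewise had every active epidermis library above both rest libraries of epidermis. On the other side Fgfr1, Thbs3, Fermt2, Fam189a2, Tbc1d16 and Dkk3 had the lowest p, and each was lower in the active epidermis. Fgfr1, the fibroblast growth factor receptor, was at 47.6 CPM in epidermis at PWD0, 5.41 to 8.996 in the active wound and 47.2 at PWD28, against 135 and 169, 360 to 523 and 284 CPM in dermis on the scale of all 12 libraries. Alcam and Hspb8, both lost and regained in dermis, were the lost genes with a difference above 0 (0.21 ± 0.61 and 2.22 ± 0.79, FDR 0.86 and 0.138), which did not pass the test.

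**Figure D5:**
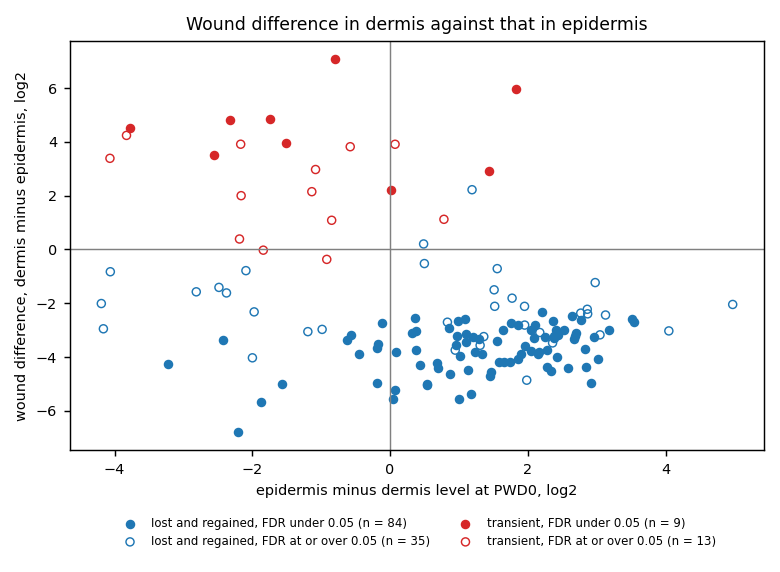
Difference between the wound effect in dermis and that in epidermis (log2) against the level in epidermis minus dermis at PWD0 (log2), for 119 lost and regained and 22 transient genes; filled points passed the interaction test (84 and 9 genes). The filled lost genes lie below 0 and the filled transient genes above 0.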

How the data were processed

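Skin RNA was measured by RNA-seq, and the authors deposited, for each library, raw counts by gene symbol, with neither normalization nor filtering. Per the study's methods, reads that carried no strand information were aligned to the laboratory mouse genome mm10 with STAR and counted on RefSeq genes with htseq-count 0.6.0. The version of STAR differs between the methods and the submitters' processing notes (2.4.1d there). Spiny mouse reads were thus counted on another species' genes, and 38.0% to 60.5% of the reads of the dermis libraries were set aside for low alignment quality, so that levels of diverged genes may be too low. A sample list among the study's supplements gives days that differ slightly from GEO's labels, which were used here.

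The 5 summary lines of each file were dropped and 24500 symbols read. Testing used R 4.3.3 with edgeR 4.0.16, TMM scaling, filterByExpr defaults, a prior count of 0.125 and glmQLFTest, with an FDR under 0.05 and the 6 dermis libraries only. Each standard error was obtained by dividing the absolute log2 fold change by the root of its F statistic. Levels on the log2 scale used a pseudocount of 0.5 CPM. Replicate pairs differed far beyond counting noise, with a chi-square per degree of freedom of 52.1 for the PWD0 pair and 108 for the PWD21 pair. On simulated counts, 70% of 200 genes with a log2 fold change of 3 were recovered for the active wound against rest in 14096 genes, and 7.89% of the calls were false. For the interaction 30% were recovered and 4.76% of the calls were false, so that a gene not called there may still differ. Levels were otherwise the same in all simulated libraries, so that differences between days within a side were not simulated. Alternatives were RLE and library size scaling, low-count filters, the likelihood ratio test, DESeq2 1.42.0, a fit per time point, all 12 spiny mouse libraries, thinned libraries and each library left out. Motif counts and drawings were made in Python 3.11.15 (pandas 2.3.3, matplotlib 3.10.9).

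Genes were named by rule. In each direction these were the 12 largest changes among genes that averaged 10 CPM or more on the higher side, predicted symbols left out. Added were up to 4 called members per gene list, or its most abundant member where none was called, up to 6 genes per direction of the interaction, up to 8 per direction of PWD28 against PWD0, and 6 genes that the study follows. Not all are given, and further genes were chosen after their values were seen. Members and lists were chosen with earlier results of these data known. Results for some genes are not reported here.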

Additional observations from a re-analysis of the deposited data

Results flagged for a closer look

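The wound difference differed between dermis and epidermis in 514 of 15288 genes by edgeR's interaction test, and listed here are the 6 in each direction with the lowest p among genes that averaged 10 CPM or more in dermis. The values are the dermis difference minus the epidermis difference on the log2 scale, with edgeR's FDR. On the positive side they were 3.83 for Fgfr1, 4.20 for Thbs3, 3.69 for Fermt2, 5.81 for Fam189a2, 3.18 for Tbc1d16 and 3.01 for Dkk3, with FDR from 0.00373 to 0.00656. On the negative side they were -5.21 for Tgm5, -3.89 for Rab25, -4.39 for Clic3, -5.05 for Ckmt1, -4.64 for S100a14 and -3.99 for Lypd3, with FDR from 0.000218 to 0.00267. Fam189a2 had a log2 fold change of 0.02 in dermis and of -5.79 in epidermis, where the active wound held 0.271 to 0.513 CPM against 24.5 and 17.0 CPM at rest. Keratinocyte markers were lower in the active dermis too, and their part in the negative side was not tested.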

How the results depend on the processing

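The genes called between active wound and rest were 141 (22 transient, 119 lost and regained). In the same order they were 350, 80 and 264 with no low-count filter, 255, 37 and 218 with at least 10 counts in every library, 1468, 405 and 849 with DESeq2, 1307, 375 and 780 with the likelihood ratio test, 2405, 723 and 982 with 1 coefficient per time point, and 756, 151 and 550 with all 12 spiny mouse libraries in 1 fit. Lost genes were 179 with RLE normalization. Only 4, 1 and 3 passed among genes under 2-fold above dermis in epidermis, where fewer genes were tested. With each library left out the counts ran from 0 to 1510, 0 to 585 and 0 to 923 in the pooled fit, and from 1211 to 4072, 379 to 1464 and 630 to 1991 in the fit per time point. The epidermal restriction and the time-point fit without each library were chosen after seeing the data. Thinning every library to the smallest total left 100 calls, 82 of them among the 141. PWD28 against PWD0 called 788 genes, 1836 with the likelihood ratio test and 451 to 3205 with each other library left out. The interaction called 514, 1693 with DESeq2 and 34 to 1617 with each library left out. Of 88 single-gene values recomputed under the alternatives, which do not cover every gene in the text, 11 changed sign, none of them of a called gene. The 11 were Tpx2 (-0.0127 with RLE, -0.11 with library size only, -0.0133 with DESeq2, -0.0702 when thinned, -0.0405 among genes under 2-fold in epidermis, and -0.17 to 0.21 with each library left out), Atp5a1 (0.12 per time point, -0.62 to 0.18), Hspa5 (0.22, -0.46 to 0.31), Stat3 (-0.38, -0.57 to 0.47), and, with each library left out only, Acta1 (-1.29 to 0.0217), Hba-a1 (-1.30 to 1.23), Krt71 (-4.42 to 0.15), Nr1d1 (-1.21 to 0.0124), Rrm1 (-0.44 to 0.0702), Tagln (-0.11 to 1.89) and Tgfb1 (-0.13 to 0.69). The cause of these changes was not tested. No paired analysis was possible because the labels give the libraries no replicate numbers.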
